A study of Mus musculus with 2 samples.

Results

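The S100 genes encode small calcium-binding proteins, and 10 of them were examined in the dorsal skin of Mpzl3 null mouse pups against wild-type littermates. The genes were taken by symbol from a fixed list (S100a1, S100a3, S100a4, S100a6, S100a8, S100a9, S100a10, S100a11, S100a13 and S100a16), out of 18855 genes named on the arrays, and S100a8 and S100a9, which together form calprotectin, were set against the other 8. Mpzl3 is a membrane protein of the immunoglobulin superfamily, and the series links its loss to a skin disease resembling seborrheic dermatitis. RNA of Mpzl3 -/- pups (Cy5) and of +/+ littermates (Cy3) shared an array, with 1 array for pups aged 1 day (P1) and 1 for pups aged 9 days (P9). Dyes were not swapped, so dye and genotype cannot be told apart. Neither the making of the null allele nor the number of pups behind a channel was given in the sources used here.

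S100 proteins carry a pair of EF-hand calcium-binding motifs and mostly work as dimers that bind and alter target proteins when calcium rises. Calprotectin, the S100a8 and S100a9 heterodimer, is abundant in neutrophils and is made by keratinocytes when the epidermis is injured or inflamed; outside the cell it binds metal ions and acts on the receptors TLR4 and RAGE. Other members have roles inside the cell, among them S100a10 and S100a11, partners of annexins, S100a1, a regulator of calcium handling in striated muscle, and S100a3, a protein of the hair cuticle.

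The promoters of the calprotectin subunits are shown because these were the members whose ratio differed most between the ages, as given below. The 250 bases before each transcription start are from RefSeq on GRCm38.p6, for S100a8 on the plus strand at chr3:90668821-90669070 and for S100a9 on the minus strand at chr3:90695722-90695971. Capitals mark matches to TATAAA, the TATA box, and to TTNNGNAA, a form of the C/EBP site, each read on both strands.
S100a8: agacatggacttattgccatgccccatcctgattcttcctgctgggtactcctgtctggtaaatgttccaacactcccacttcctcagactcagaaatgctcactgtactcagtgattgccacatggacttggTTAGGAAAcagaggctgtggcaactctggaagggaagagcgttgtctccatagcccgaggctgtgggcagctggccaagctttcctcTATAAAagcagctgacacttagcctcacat
S100a9: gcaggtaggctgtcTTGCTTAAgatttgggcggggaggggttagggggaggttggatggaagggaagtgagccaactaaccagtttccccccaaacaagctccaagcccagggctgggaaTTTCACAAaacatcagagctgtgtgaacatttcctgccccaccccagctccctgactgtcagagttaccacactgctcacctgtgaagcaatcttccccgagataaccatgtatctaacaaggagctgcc
S100a8 held a TATA box 30 to 25 bases before the start and 1 C/EBP match from 117 to 110 bases before it. S100a9 held 2 C/EBP matches, from 236 to 229 and from 130 to 123 bases before the start, and its window had no TATAAA. No matches overlapped. In windows of 250 bases over 32817 promoters, 36.8% held the C/EBP letters and 12.4% the TATA letters. Of the 9 members with an entry, in 13 windows, S100a3, S100a8 and S100a9 held the C/EBP letters and S100a3, S100a4 and S100a8 the TATA letters. TGANTCA, the AP-1 site, was in 6.75% of all windows and in those of S100a11 and S100a16. TTCNNNGAA, a STAT site, was in 7.01% of all windows and in 0 of the members'. Such matches describe the letters, and binding was not measured.

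The values below are taken as log2 ratios, null over wild type, with the base inferred. A positive value means more signal in the null channel, and 1 is a 2-fold difference. A ratio holds no level, so the abundance of a transcript and the presence of the skin's defining markers could not be examined, and fewer cells of a type and less RNA per cell cannot be told apart. A single array for each age leaves no replicate check, so no p-value was computed, and precision is limited by the number of arrays. Probes of 1 gene had a pooled SD of 0.36 at each age, which covers probes and spots and not animals. A gene is called where the mean of its probes reached 2-fold and all of them lay on 1 side of 0. The Mpzl3 probe was at −0.21 at P1 and 0.20 at P9, and whether it lies in the deleted region is not known here, so it does not check the labels. The P9 channels also differed in sex-linked transcripts, with Xist at 3.67 ± 1.05 (SD, 4 probes) and the Y-linked gene Eif2s3y at −3.98. At P1 Xist was on the other side of 0, at −1.03 ± 0.77 (SD, 4 probes) and not called, and Eif2s3y was blank. Uty, also Y-linked, was at 0.33 ± 0.57 (SD, 2 probes) at P1 and −1.99 ± 1.46 (SD, 4 probes) at P9. The part of sex in the P1 and P9 values below, and in their difference, was not tested.

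All 10 members had a value at P1 and 7 at P9, where S100a3, S100a6 and S100a10 were blank. Blank cells made up 4.71% of rows at P9 and 11.3% at P1, and of 120 ribosomal protein probes 47 were blank at P9 and 2 at P1. The reason for the blanks was not given in the sources used here. Except for S100a4 with 2 probes, each member rests on 1 probe.

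At P1 the members lay on both sides of 0, and none reached 2-fold. S100a8, S100a10 and S100a9 were the lowest and S100a3 and S100a1 the highest. The median of the 10 was 0.11, with 7 above 0, beside a median of 0.06 over all 17233 genes measured, of which 55.8% were above 0. Past 2-fold were 0 members in either direction, where 1.72% of all genes were called higher and 1.17% lower. At a lower threshold of 1.5-fold, 2 of the 10 were higher (background 9.08%) and 3 were lower (background 6.92%).

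At P9 the 7 measured members were all above 0, and S100a9 alone was past 2-fold. Their median was 0.34, beside 0.02 over 18269 genes, of which 53.4% were above 0. The other 6 ranged from 0.29 for S100a11 to 0.71 for S100a4, and without S100a4 up to 0.42 for S100a13. The call of 1 higher member of 7 compares with 2.24% of all genes called higher, and 0 members were lower, against 0.465% of all genes. At 1.5-fold, S100a4 joined S100a9, against 6.17% of all genes.

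**Figure D1:**
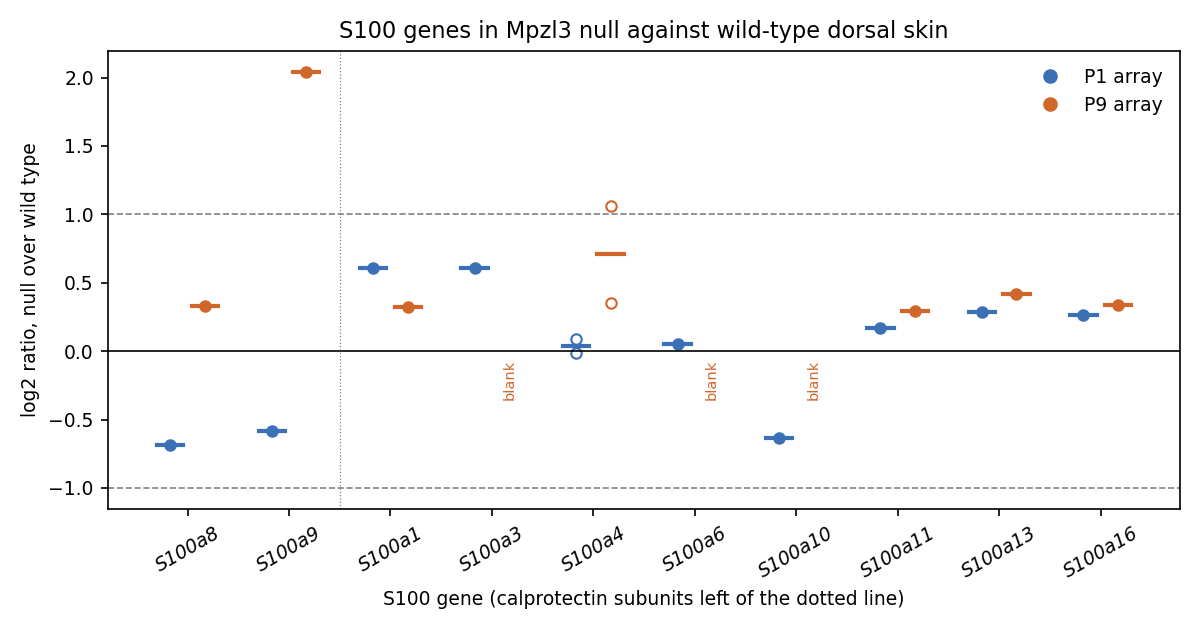
Log2 ratio of null over wild type (y axis) for each of the 10 S100 genes (x axis) on the P1 (blue) and P9 (orange) arrays. Filled points are single probes, open points are the 2 probes of S100a4, bars are gene means and dashed lines mark 2-fold; S100a9 at P9 is the only gene whose mean lies past 2-fold, and S100a8, S100a9 and S100a10 are the genes below 0 at P1 by their mean.

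Of the calprotectin subunits, S100a8, the smaller one, was at −0.69 at P1 and 0.33 at P9. S100a9, the larger one, with a tail that takes part in metal binding, was at −0.585 at P1 and 2.04 at P9, or 1.5-fold lower and 4.12-fold higher in the null channel. Both were therefore below 0 at the earlier age and above 0 at the later one. Among all genes measured at P9, 2 had a higher ratio than S100a9, namely Xist and Sprr2d, a small proline-rich protein gene, at 2.14. At P1, 4.62% of genes were lower than S100a8 and 7.06% were lower than S100a9.

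The subunits were close to each other at P1 and apart at P9. S100a9 exceeded S100a8 by 0.10 at P1 and by 1.72 at P9, a ratio of 3.28-fold. S100a8 at P9 lay among the other members, at −0.007 from their median of 0.34, with 3 of the 5 measured above it and 2 below. S100a9 at P9 was above all 5 of them, by 1.71 over their median. At P1 all 8 other members were above S100a8, and 7 of 8 were above S100a9, the exception being S100a10. The mean of the subunits minus the median of the others was −0.85 at P1 and 0.85 at P9.

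The difference of P9 minus P1 sets 2 arrays with the same dye orientation side by side. It was 2.63 for S100a9 and 1.02 for S100a8. Of 16647 genes measured at both ages, only Xist had a larger difference than S100a9, and 100 genes (0.601%) had a larger one than S100a8. Both subunits differed by at least 1 out of 7 members measured at both ages, where 0.625% of all genes did. S100a8 lies at that threshold, with 1.016 from 1 probe per age. With the arrays centred and scaled to 1 spread, S100a8 was at −0.61 at P1 and 0.38 at P9, which differ by just under 1. The other 5 members had differences from −0.28 for S100a1 to 0.67 for S100a4, with a median of 0.12, and the median of all genes was −0.01.

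**Figure D2:**
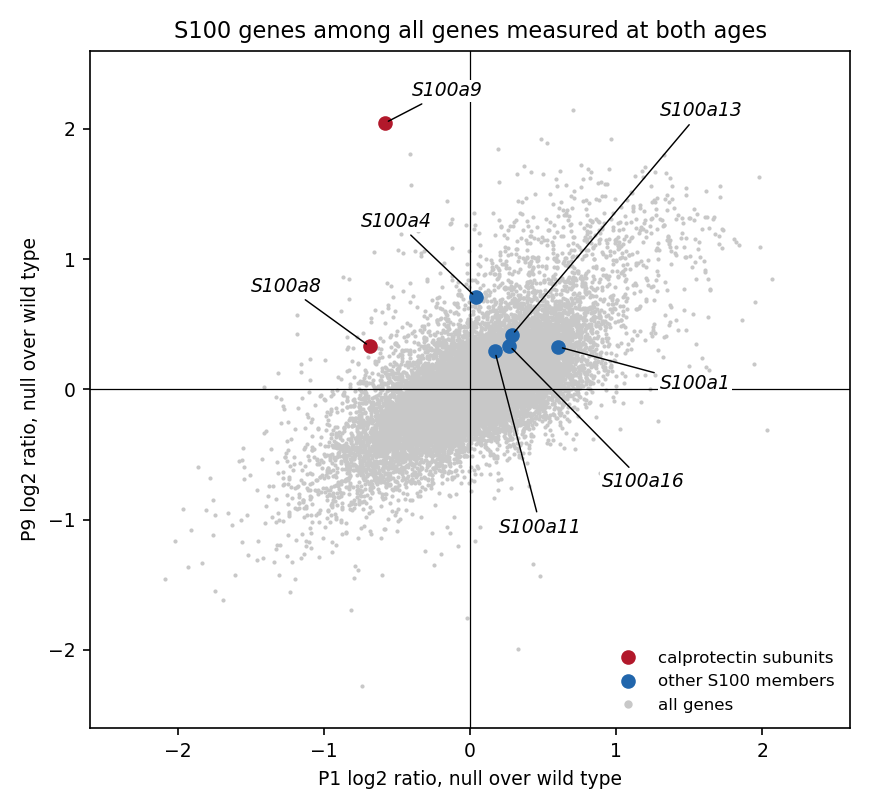
P1 log2 ratio (x axis) against P9 log2 ratio (y axis), null over wild type, for the 16647 genes measured at both ages (grey), with the calprotectin subunits in red and the other 5 measured S100 members in blue. S100a8 and S100a9 lie left of 0 and above 0, S100a9 at the upper edge, while the other members lie at or right of 0; 1 gene, Xist, is beyond the axes.

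S100a3 and S100a1 had the highest ratios at P1. S100a3, the hair cuticle protein, was at 0.61 at P1, above 91.8% of genes, and was blank at P9. The keratins of the hair cuticle and shaft had a median of 0.52 at P1, with 9 of 10 above 0, and 0.25 at P9, with 5 of 7 above 0; their part in the S100a3 ratio was not tested. Krt34 was the only one of them called, at 1.48 at P1 and 1.01 at P9. Padi3, an enzyme that modifies human S100A3 in the hair cuticle, was at 0.51 and 0.22 (P1, then P9).

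S100a1 was at 0.605 at P1 and 0.33 at P9. Ryr1, the calcium release channel of skeletal muscle that S100a1 binds, was past 2-fold at P1 at 1.12 ± 0.62 (SD, 3 probes) and at 0.80 ± 0.35 (SD, 3 probes) at P9. The P1 array also had skeletal muscle markers above 0 in 14 of 14 genes, with a median of 0.83. They ranged from 0.35 for Tnni2 to 1.55 for Myh2, and 4 were called higher, against 1.72% of all genes. At P9 the median of the muscle markers was 0.24 with 13 of 14 above 0 and 0 called. S100a1 and the muscle markers thus both had smaller ratios at P9. The S100a1 difference, −0.28 from 1 probe per age, was smaller in size than the SD of this difference over all genes, 0.33. The part of muscle content in S100a1 was not tested.

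The partners of annexins differed from each other at P1. S100a10, which pairs with annexin A2 at the plasma membrane, was at −0.64 at P1 and blank at P9. Anxa2 was at −0.43 ± 0.28 (SD, 3 probes) at P1 and 0.41 ± 0.07 (SD, 3 probes) at P9. S100a11, which binds annexin A1 and is a component of the cornified envelope in human keratinocytes, was at 0.17 and 0.29. Anxa1 was at −0.69 at P1 and blank at P9. S100a6, or calcyclin, was near 0 at 0.055 at P1 and blank at P9, and its binding partner Cacybp was at −0.31 and −0.09. Over 18 partner genes the median was 0.12 at P1 and 0.09 at P9 over 17 with a value, and Ryr1 at P1 was the only call at either age.

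S100a4, a protein of motile fibroblasts and leukocytes that binds non-muscle myosin, had probes that disagreed in size at P9. They were at −0.01 and 0.09 at P1 and at 0.35 and 1.07 at P9, giving a P9 mean of 0.71 ± 0.50 (SD, 2 probes). The gene was above 95.6% of genes at P9 by this mean, and by the probe for its RefSeq transcript alone it was at 0.35, close to the other members. Dermal fibroblast markers had a median of −0.05 at P1 and −0.13 at P9, with 8 of 10 below 0 at P9. Col1a2 was called lower at both ages, at −1.12 and −1.20.

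S100a13 and S100a16 were alike at both ages. S100a13, which helps to release FGF1 and interleukin-1α from cells by a route without a signal peptide, was at 0.29 at P1 and 0.42 at P9. S100a16, a widely expressed member, was at 0.27 and 0.34. Together with S100a11 these genes differed by 0.07 to 0.13 between the ages, less than the pooled SD between probes. That SD does not measure 1 probe read on 2 arrays. The SD of the difference between the ages over all genes was 0.33. Of the cargo of S100a13, Il1a was at −0.69 ± 0.14 (SD, 2 probes) at P1 and 0.10 ± 0.38 (SD, 2 probes) at P9, and Fgf1 was at 0.16 ± 0.09 and 0.09 ± 0.03 (SD, 2 probes each).

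A further 6 S100 genes were on the arrays. S100a7a, the mouse gene most like human psoriasin and koebnerisin, was below 0 at P1 at −0.12 and above 0 at P9 at 0.50, and its difference of 0.62 was exceeded by 3.41% of genes. S100b, which marks Schwann cells, melanocytes and adipocytes, was at 0.32 and 0.03. Schwann cell markers had medians of 0.53 and 0.19, adipocyte markers of 0.45 and 0.03, and melanocyte markers of −0.25 and −0.56. S100a14 at 0.17, S100a7l2 at −0.16 and S100g at −0.36 had a value at P1 only, and S100a5 at 0.02 at P9 only. With these, all 10 S100 genes that had a value at P9 were above 0, and 9 of 15 were above 0 at P1.

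The members share a place in the genome. By the order of genes in RefSeq, all 10 lie on chromosome 3 within the epidermal differentiation complex, where 56 genes on the array stand from S100a1 to S100a10. The other 46 include the small proline-rich, late cornified envelope and S100-fused proteins. Over these, the median was 0.04 at P1, with 24 of 40 above 0 and 4 at 1 or more. At P9 it was 0.52, with 36 of 41 above 0 and 7 at 1 or more. Of all genes, 1.72% were called higher at P1 and 2.24% at P9. The members' positive values at P9 were thus shared by most genes between them, and their median of 0.34 was below that of the neighbours. S100a8 and S100a9 are next to each other. S100a7a on the side of S100a8 was at −0.12 and 0.50, and Pglyrp3, a peptidoglycan recognition protein gene beyond S100a9, was at −0.53 and 0.56.

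**Figure D3:**
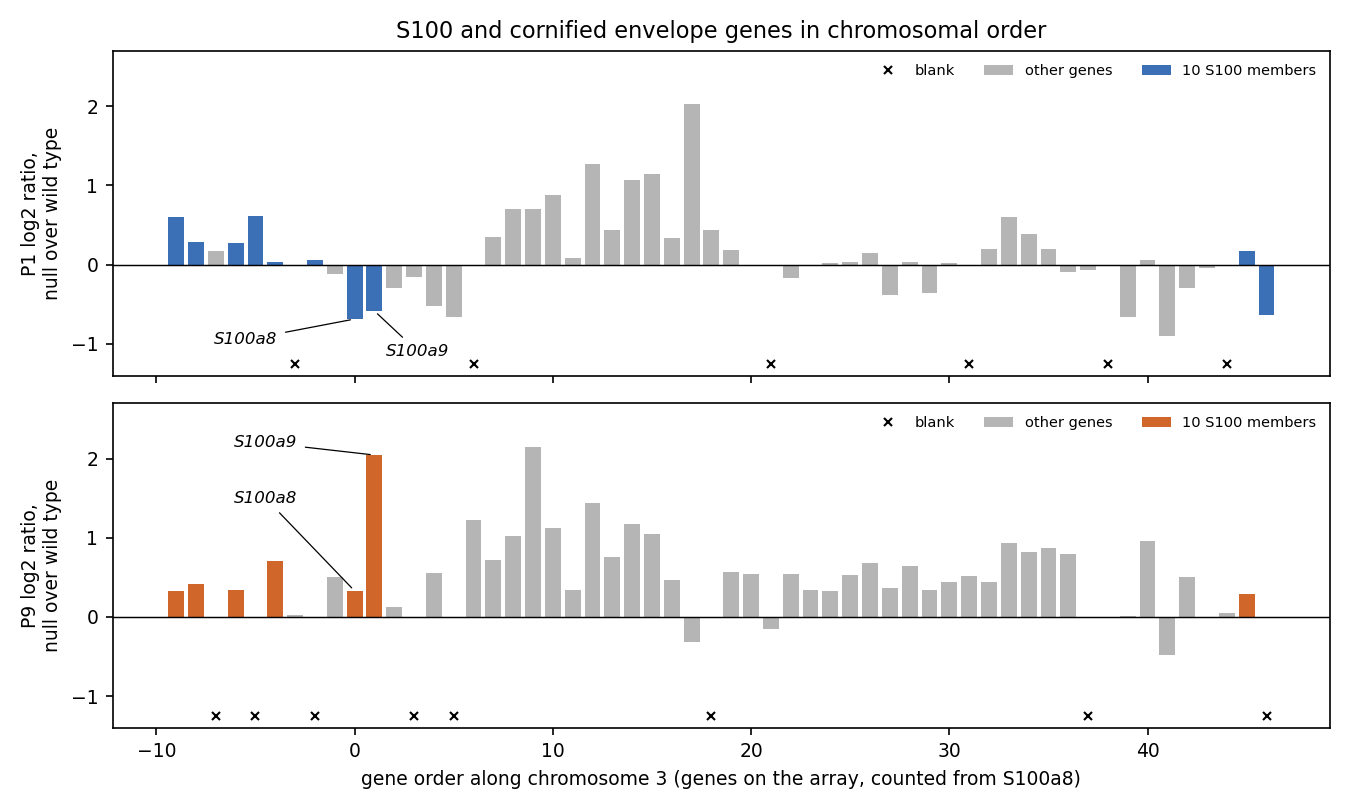
Log2 ratio of null over wild type (y axis) at P1 (upper panel) and P9 (lower panel) for the 56 genes on the array from S100a1 to S100a10, in their order along chromosome 3 (x axis, counted from S100a8). Coloured bars are the 10 S100 members, grey bars are other genes and crosses are blanks; S100a8 and S100a9 are below 0 at P1, and most genes are above 0 at P9.

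The S100-fused proteins, which carry an S100 domain at their start and form granules and envelopes of the epidermis and hair follicle, had a median of −0.29 over 5 genes at P1 and 0.04 over 6 at P9. Flg, which encodes filaggrin, was at 0.06 and 0.96, Rptn at −0.29 and 0.51, Flg2 at −0.66 and 0.02, and Hrnr at −0.90 and −0.48. All 5 measured at both ages had a larger ratio at P9, with a median difference of 0.68, and 0 of the list were called at either age.

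Receptors and signalling genes of calprotectin were not called at either age. Their median was 0.02 at P1 and 0.01 at P9 over 12 genes, with 6 above 0 each time. Ager, which encodes RAGE, was at 0.44 and 0.10, and Tlr4 was at −0.81 and −0.38. Ly96, the co-receptor of TLR4, was at −0.42 and 0.02, Cd14 at 0.29 and 0.10, and the adaptor Myd88 at 0.48 and 0.43. Of the receptors named, Tlr4 was thus below 0 and Ager above 0 at both ages.

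Genes linked to the induction of calprotectin in keratinocytes had a median of −0.09 over 16 genes at P1 and 0.20 over 17 at P9. They were mostly cytokines and transcription factors, and not all of them are known to raise calprotectin. Above 0 were 6 genes at P1 and 14 at P9. Il1b, at −0.46 and 1.04, was the only one called. Il6 was at −0.77 and 0.40. The interleukin-36 gene Il1f6 was at −0.02 and 0.48. Il1f9, another interleukin-36 gene, was at −0.47 ± 0.55 and 0.12 ± 0.28 (SD, 2 probes each). Cebpb, a factor of the C/EBP family, was at 0.09 ± 0.31 and 0.20 ± 0.09 (SD, 2 probes each). The interleukin-17 genes were at 0.21 (Il17a) and −0.23 (Il17f) at P1. At P9 Il17f was at −0.34 and Il17c at −0.045.

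Calprotectin transcripts can come from keratinocytes or leukocytes, and genes linked to each were measured. Some listed genes are not particular to 1 source, among them Lcn2 of the stress list, at 0.565 and 1.105 (P1, then P9). The lists therefore do not separate these sources. Keratinocyte stress genes had a median of 0.28 over 10 genes at P1 and 0.97 over 10 at P9, when all 10 were above 0. Of the 10, 5 were called higher at P9, against 2.24% of all genes. This list was chosen with earlier results of these data known. Among the 5 called, Krt16, a keratin of activated epidermis, was at −0.13 and 1.08, and Defb14, a beta-defensin, at −0.13 and 1.27. Krt6a was at 0.57 and 0.86. Stfa2, a stefin A gene, was called lower at P1, at −1.19, and was at 0.42 at P9. Neutrophil markers had a median of 0.14 at P1, with 9 of 14 above 0, and 0.23 at P9, with 10 of 15 above 0. Their P9 range was from −1.06 for Camp, the only call, to 0.63 for Cxcr2. The stress genes at P9 ranged from 0.36 for Stfa3 to 1.27 for Defb14. S100a9 at P9 was thus above every gene of both lists. S100a8 at P9, at 0.33, was below all of the stress genes and within the range of the neutrophil markers. Monocyte and macrophage markers had medians of −0.12 and 0.00 over 12 genes, and Ccr2 was called lower at P1, at −1.03. Basal and suprabasal keratinocyte markers had medians of −0.01 over 7 genes and 0.50 over 5, which were not the same set. The basal keratins Krt5, Krt14 and Krt15 were blank at P9, and Krt10 was blank at P1. At P9, 3 were above 0 and 2 below, namely Dsg1a at −0.05 and Dsc1 at −0.79. Over the 4 measured at both ages the median difference was 0.38. The part of each cell type in the S100a8 and S100a9 ratios was not tested.

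**Figure D4:**
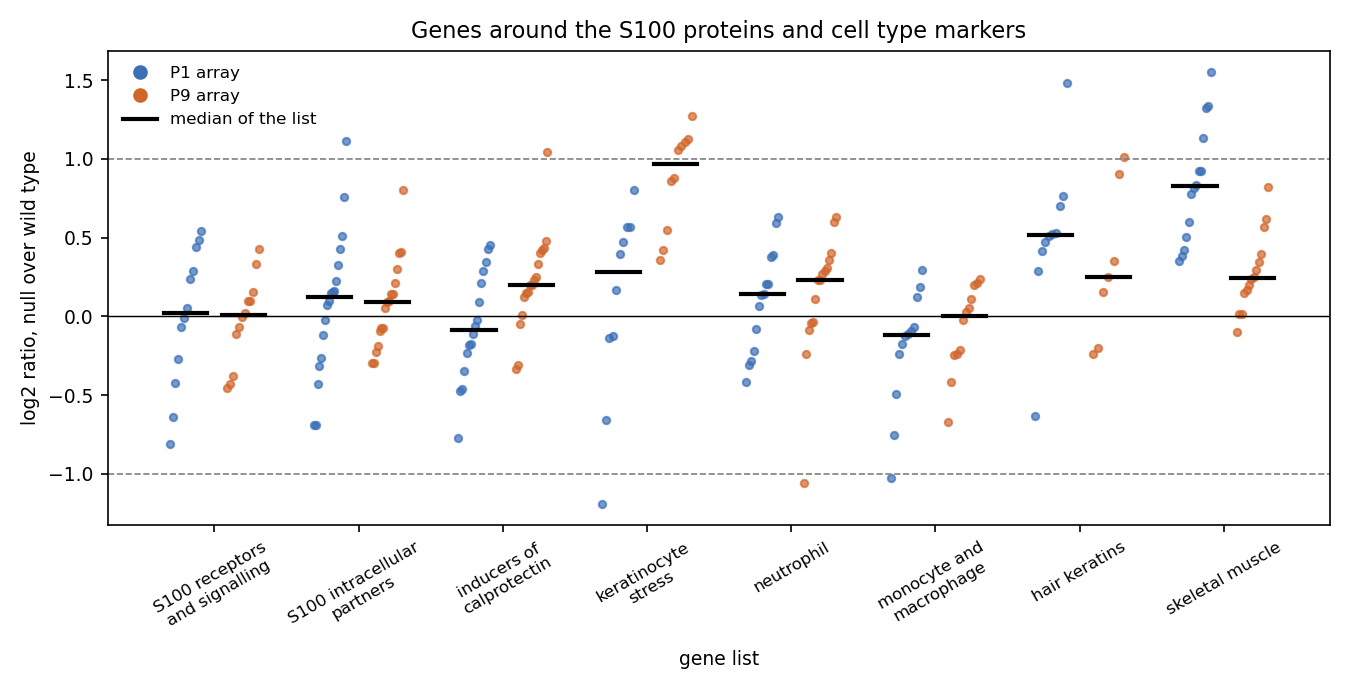
Log2 ratio of null over wild type (y axis) for the genes of 8 lists (x axis) on the P1 (blue) and P9 (orange) arrays; each point is a gene, black bars are medians and dashed lines mark 2-fold. Keratinocyte stress genes have the highest median at P9, 0.97, and skeletal muscle markers the highest at P1, 0.83.

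The genes nearest to the calprotectin subunits were found by the distance between their pairs of P1 and P9 ratios, over the 2 arrays. Nearest to S100a9 were Ccl20, at −0.41 and 1.81 with a distance of 0.29, Ucp1 at −0.40 and 1.57, Olfr218 at 0.19 and 1.85, Rbm3 at −0.36 and 1.21, and Ctrc at −0.12 and 1.31. The closest to S100a8 were Bcl2a1c, at −0.63 and 0.32 with a distance of 0.06, Rpl6, Plac8, Ibsp and Mmp13, at distances up to 0.10.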

How the data were processed

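Dorsal skin RNA was amplified to amino allyl RNA, coupled with Cy5 (null) or Cy3 (wild type) and hybridised to 2 Agilent Whole Mouse Genome arrays, per the labels' protocols. The authors deposited 1 table of 39212 rows with log2 ratios; background correction, dye normalization and the filter behind blanks were not given in the sources used here. Base 2 was inferred from the range: the largest size, 4.898, is 29.8-fold in base 2, 134-fold for a natural logarithm and 79068-fold in base 10, so fold values rest on base 2. Column medians were −0.007 at P1 and 0.005 at P9; how they were centred is unknown. There were 0 columns of unmapped samples.

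Of the rows, 31337 named 1 gene by the platform annotation, and 31210 of these had their symbol checked through Entrez identifiers against the RefSeq table of GRCm38.p6. Probes of a gene were averaged. With 1 array per age no test was run. The members and gene lists were chosen with earlier results of these data known. The rule named all S100 genes, list members past 2-fold or of largest size, and the 5 nearest genes to each calprotectin subunit; the text gives a selection. Genes outside it, such as Anxa2, Ager or Cebpb, were named for a known link to a member, after their values were seen. Alternatives changed the threshold, probe summary, centring, scaling and members. Calling was tested on simulated data, in which chosen genes had ratios well past the threshold and only probe noise was added. It therefore does not cover ratios near the threshold, or differences between animals or dyes. Python 3.11.15, numpy 2.4.6, pandas 2.3.3 and matplotlib 3.10.9 were used.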

Additional observations from a re-analysis of the deposited data

Results flagged for a closer look

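The genes given here had ratios on opposite sides of 0 at the 2 ages; with 1 array per age the difference was not tested. The difference of P9 minus P1 was 2.63 for S100a9, 1.02 for S100a8 and 0.62 for S100a7a. Among list genes past 2-fold at either age, it was 1.71 for Serpinb3a, 1.61 for Stfa2, 1.503 for Il1b, 1.41 for Defb14, 1.21 for Krt16 and −1.12 for Camp. Of these 9 genes, Camp was the only one with the lower ratio at P9.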

How the results depend on the processing

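No paired analysis was possible because each age has 1 array. With a 1.5-fold threshold, 5 members passed at P1 in place of 0, and 2 at P9 in place of 1; S100a9 lies on that threshold at P1. With the probe of largest size per gene, 2 passed at P9, since 1 probe of S100a4 was at 1.065. The mean of P9 minus P1 over members was 0.62 against a median of 0.13. S100a9 at P9 was 2.42 with the arrays centred and scaled to 1 spread. The cause of such shifts was not tested. Without the second S100a4 probe, an alternative chosen after seeing the data, S100a4 was at 0.35 at P9. The other 59 of 76 values that answer a comparison stayed within the pooled probe SD, or for counts within 1.5 times. That SD, 0.36, is larger than the member medians, so this rule says little about how stable they are. At P1 the members' mean was 0.01, and their median without the calprotectin subunits was 0.22. Over all genes at P1, 296 were higher and 201 lower; these counts became 1564 and 1193 at 1.5-fold, 37 and 17 at 3-fold, and 168 and 118 with scaling. At P9, 409 and 85 became 1128 and 603 at 1.5-fold and 36 and 6 at 3-fold, and the lower genes 180 with scaling. By the probe of largest size, 455 were lower at P1 and 185 at P9. Signal over background was not analysed here, so dim spots could not be told from bright ones.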
